A study of Mus musculus with 12 samples.

Results

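In all, 53 genes of the early secretory pathway were followed in RNA-seq libraries labelled kidney, which were made from mice treated with the polymyxin antibiotic colistin, with 7-hydroxycoumarin (7-HC), with both or with neither. The genes were chosen by symbol. They encode proteins of the signal recognition particle (Srp), the Sec61, Sec62 and Sec63 proteins of the translocon and the translocon-associated protein (TRAP) complex (Ssr). Others encode the signal peptidase (Sec11 and Spcs), the COPII coat (Sec13, Sec16, Sec23, Sec24 and Sec31) and the Sec22 proteins. The rest encode the COPI coat (Copa to Copz2) and the p24 cargo proteins (Tmed). The table listed 22899 genes, and 53 of these had such a symbol. Tmed11 held no value in any library, so 52 of the 17738 genes with values were members, and 50 of them were among the 10764 genes tested, since Tmed6 and Tmed8 did not reach 1 FPKM (fragments scaled by transcript length and library size) in 3 libraries.

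There were 4 groups of Kunming mice recorded as female, aged 6 to 8 weeks and weighing 18 to 22 g, with 3 mice and 3 libraries a group. The control group received saline, mice of the 7-HC group 50 mg/kg of 7-HC a day, those of the colistin group 15 mg/kg of colistin a day, and those of the colistin + 7-HC group both at these daily doses, the 7-HC first. Injections were intraperitoneal and lasted 7 days. The 7-HC was dissolved in dilute DMSO and the other injections were in saline, so any effect of 7-HC cannot be told apart from that of its vehicle.

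Proteins that are to be secreted or to reach a membrane enter the endoplasmic reticulum (ER) through the Sec61 channel. The signal recognition particle brings the ribosome to the channel, TRAP and Sec63 assist the passage, and the signal peptidase removes the signal sequence. Finished proteins then leave in COPII-coated vesicles for the Golgi, and COPI-coated vesicles bring ER residents and machinery back, with the p24 proteins travelling in both. Hepatocytes, plasma cells and other cells that secrete much protein are known for high levels of this machinery. The unfolded protein response raises many of these genes through the transcription factors XBP1 and ATF6.

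Before any comparison, the tissue label was set against markers. A list of 12 liver markers summed to between 69212 and 100222 FPKM in every library, and all 12 reached the filter. Of 8 proximal tubule markers 1 reached it, Miox, at 0.32, 0.21 and 0.05 FPKM in control and 15.8, 9.35 and 7.30 in colistin, and of 8 markers of the loop of Henle and distal nephron none did, with Kap, Slc5a2, Slc12a1 and Aqp2 blank in every library. The other markers of both nephron lists stayed under the filter or blank. By marker levels every library was thus like liver rather than kidney, against its label, and the libraries are called by their group alone. Against the recorded sex, each of 4 genes of the Y chromosome (Uty, Ddx3y, Eif2s3y and Kdm5d) was measured in every library, at between 1.23 and 24.1 FPKM. In bulk RNA, fewer cells of a type and less RNA per cell cannot be told apart.

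The members differed widely in level. In control the highest was Tmed2, a p24 protein of the beta subfamily, at 112, 106 and 122 FPKM, a level that lay above every other member's in each of the 3 libraries. After it came the TRAP subunits Ssr4 (89.8 ± 1.55 FPKM, SD, n = 3), Ssr2 (82.9 ± 4.52) and Ssr3 (81.7 ± 2.29), and the Sec61 beta subunit Sec61b (76.8 ± 9.81). The ranges of Ssr2, Ssr3 and Sec61b overlapped, and Ssr4 lay above those of Ssr2 and Ssr3. At the other end stood Sec31b, a paralog of the COPII outer coat gene Sec31a, at 2.49, 1.15 and 1.58 FPKM, and the p24 genes Tmed8, at 0.74, 0.68 and 0.72, and Tmed6, at 0.26, 1.09 and 0.52. Tmed8 stayed between 0.63 and 0.87 FPKM over all 12 libraries. Tmed6 was listed at 0.25, 0.13 and 0.19 FPKM in colistin and at 0.26, 0 and 0 in colistin + 7-HC, at or under its lowest control value in all 6.

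The first comparison asked what colistin does without 7-HC. Of the 50 members tested, 27 rose and 2 fell in colistin against control at an adjusted p under 0.05 (limma on log2(FPKM + 0.5), Benjamini-Hochberg over all genes tested), where 12.7% of all tested genes rose and 19.9% fell. The median log2 fold change of the 50 was 0.52, against -0.071 over all 10764 genes. The 27 risers spanned log2 fold changes of 0.43 to 1.44. In 33 members every colistin library lay above every control library and in 3 every colistin library lay below, against 18.8% and 28.1% of all genes. The stricter thresholds of the study's own comparisons (at least a 2-fold change, q no higher than 0.001) left 1 member, the riser Sec11c, beside 2.61% of all genes as risers.

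**Figure D1:**
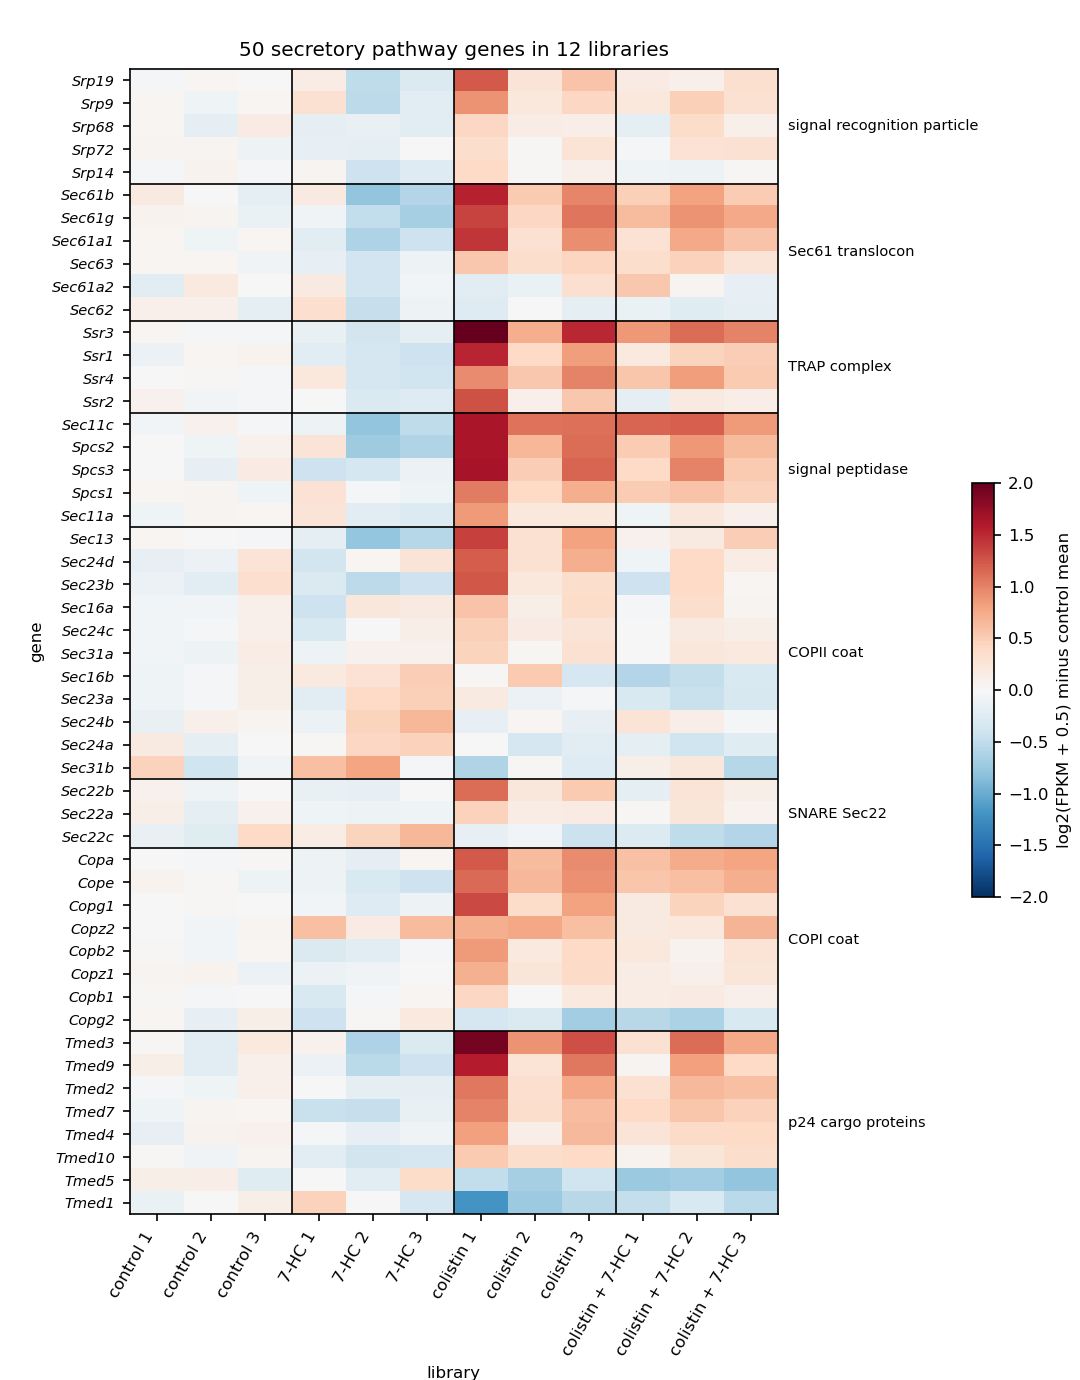
Heat map of the 50 tested members (rows, grouped by role) in the 12 libraries (columns), coloured by log2(FPKM + 0.5) minus the control mean. Most rows of the TRAP, signal peptidase, Sec61, COPI and p24 groups are red in the colistin libraries, deepest in colistin 1, while Tmed1 and Tmed5 are blue and most COPII rows are pale.

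The rise was not shared evenly between the 3 colistin libraries. The values of all members summed to 3230 FPKM in colistin 1, 1950.0 in colistin 2 and 2480 in colistin 3, where the control libraries lay between 1514 and 1557. Colistin 1 was the highest of its group for 39 of the 50 members and colistin 2 the lowest for 40. Over the 27 risers, the median level relative to the control mean was 2.33-fold in colistin 1, 1.29-fold in colistin 2 and 1.75-fold in colistin 3. With colistin 1 left out, 19 members were called, 18 of them higher, and with colistin 2 left out 32 were called. The share of all genes called in these refits is not given here, so the counts are descriptions. Of the 29 calls, 19 held with each of the 12 libraries left out in turn, 18 of them risers.

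Some markers on the cell type lists differed between the same libraries. Derl3, a gene of ER-associated degradation on the plasma cell list, was at 136, 32.8 and 87.2 FPKM in colistin 1, 2 and 3, from 0.54, 0.54 and 0.40 in control. The summed plasma cell list went from between 41.2 and 43.5 FPKM in control to between 66.9 and 160.2 in colistin, with 2 of its 8 genes at the filter, Derl3 and Sdc1. That sum rose with Derl3, while Sdc1 was at 39.5, 40.3 and 42.01 FPKM in control and 23.7, 33.2 and 32.4 in colistin, every colistin library below every control library. Its defining markers Jchain, Mzb1, Tnfrsf17 and Prdm1 stayed under 1 FPKM in every library. The neutrophil list, with 6 of 8 genes at the filter, summed to between 8.37 and 11.7 FPKM in control and to 56.1, 31.8 and 56.5 in colistin 1, 2 and 3, while the liver list summed to 72023, 69212 and 71092, below each of the control sums of 86766, 85484 and 95918. Of the 6 neutrophil genes tested, 3 were higher in colistin and 3 were not called (limma). Among the latter, Ly6g was at 5.48, 4.73 and 4.92 FPKM in control and 4.05, 4.43 and 4.25 in colistin. Of the 12 liver markers 8 were lower and 2 higher in colistin (limma). The part of these lists in the members' rise was not tested.

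Of the 5 members that encode proteins of the signal recognition particle, 1 passed the test: Srp19, which helps assemble the particle's RNA with its signal-binding subunit. It stood at 13.3, 14.1 and 13.8 FPKM in control, 15.2, 9.55 and 11.1 in 7-HC, 32.7, 16.4 and 20.5 in colistin and 15.4, 14.7 and 17.2 in colistin + 7-HC. All colistin libraries lay above all control libraries, colistin 1 far above the rest, and the 7-HC libraries overlapped both control and colistin + 7-HC. Srp19 rose in colistin (log2 fold change 0.68 with an SE of 0.22 and adjusted p = 0.0356, limma), and this call was lost without colistin 1, colistin 3 or any 1 control library. Srp9, which with Srp14 forms the dimer that pauses translation, gave 26.2, 24.1 and 26.4 FPKM in control and 47.9, 29.6 and 34.04 in colistin (log2 fold change 0.50 with an SE of 0.21 and adjusted p = 0.0871), above control without overlap but not past the test. Its partner Srp14 moved least, from 27.4, 29.6 and 27.2 to 37.2, 28.4 and 30.1 FPKM (log2 fold change 0.17 with an SE of 0.14 and adjusted p = 0.358), and these groups overlapped. Srp68 and Srp72, which form a dimer on the particle's other domain, had log2 fold changes of 0.23 and 0.22, neither past the test. The genes of the signal-binding subunit, Srp54a, Srp54b and Srp54c, lie outside the symbol rule and rose by 1.16, 1.14 and 0.84. These 3 are near-identical copies whose reads cannot be assigned with certainty.

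Of the 6 Sec61 translocon genes, 4 rose and none fell. Sec61b, which encodes the beta subunit of the channel, stood at 86.8, 76.6 and 67.2 FPKM in control, 86.4, 44.2 and 51.01 in 7-HC, 222, 110.0 and 152 in colistin and 106, 134 and 109 in colistin + 7-HC. Every library given colistin, with or without 7-HC, lay above every library without it. Sec61b rose in colistin (log2 fold change 1.01 with an SE of 0.27 and adjusted p = 0.0153, limma), a call lost without colistin 1 or control 3. Sec61g, the gamma subunit, stood at 12.4, 12.3 and 10.7 FPKM in control, 11.2, 8.27 and 7.21 in 7-HC, 30.7, 15.8 and 25.3 in colistin and 18.6, 22.4 and 20.2 in colistin + 7-HC. Again no library given colistin fell to the level of any without it, and the rise (log2 fold change 0.94 with an SE of 0.22 and adjusted p = 0.00698) was called with any 1 library left out. Sec61a1, the pore-forming alpha subunit, went from 48.5 ± 2.55 to 94.9 ± 35.9 FPKM (SD, n = 3; log2 fold change 0.89 with an SE of 0.24 and adjusted p = 0.0143), a call lost in a fit of the compared groups alone. Sec63, which couples the channel to the chaperone BiP, rose by 0.44 (adjusted p = 0.00955).

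The second alpha subunit gene, Sec61a2, moved least of the 6. It stood at 2.31, 3.25 and 2.79 FPKM in control, 2.32, 2.49 and 3.59 in colistin and 4.24, 2.89 and 2.40 in colistin + 7-HC. These groups overlapped (log2 fold change -0.0025 for colistin against control, SE 0.22, adjusted p = 0.995), and the sign of its fold change turned under other settings. Sec62, the partner of Sec63 in passage after translation, gave -0.15 on the log2 scale (adjusted p = 0.555).

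Of the 4 TRAP subunits 3 rose, and Ssr3 had the highest log2 fold change of all 50 members. Ssr3, the gamma subunit (chr3:65379657-65392553, GRCm38.p6), stood at 84.3, 80.4 and 80.4 FPKM in control, 73.9, 63.02 and 71.9 in 7-HC, 346, 136 and 234 in colistin and 149, 179 and 163 in colistin + 7-HC. All 6 libraries given colistin lay above all 6 without it, and the colistin group spread from the lowest of these 6 values to the highest. The rise in colistin (log2 fold change 1.44 with an SE of 0.26 and adjusted p = 0.00151, limma) held with any 1 library left out. Ssr1, the alpha subunit, stood at 16.6, 18.6 and 18.98 FPKM in control, 15.6, 14.2 and 13.5 in 7-HC, 52.8, 23.8 and 32.4 in colistin and 20.7, 24.7 and 25.6 in colistin + 7-HC. It too separated the 6 libraries given colistin from the other 6 (log2 fold change 0.91 with an SE of 0.22 and adjusted p = 0.00906). Ssr2, the beta subunit, moved least: 88.1, 79.7 and 80.95 FPKM in control and 201, 88.5 and 120.1 in colistin, without overlap but with colistin 2 close to control 1 (log2 fold change 0.63 with an SE of 0.24 and adjusted p = 0.0621). Without colistin 2, and with median-ratio scaling of the libraries, Ssr2 was called higher. Ssr4, the delta subunit, rose by 0.83 (adjusted p = 0.00471).

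Of the 5 signal peptidase genes 4 rose, with a median log2 fold change over the 5 of 1.10, the highest of the 8 role groups. Sec11c, 1 of the 2 catalytic subunits, stood at 13.2, 14.6 and 13.4 FPKM in control, 12.7, 7.71 and 9.52 in 7-HC, 43.8, 29.7 and 30.03 in colistin and 31.3, 32.1 and 25.1 in colistin + 7-HC. The 6 libraries given colistin all lay above the 6 without it (log2 fold change 1.28 with an SE of 0.19 and adjusted p = 0.000539 for colistin against control, limma). Spcs2, an accessory subunit, stood at 36.6, 34.5 and 38.9 FPKM in control, 44.1, 22.2 and 23.9 in 7-HC, 115, 58.3 and 80.1 in colistin and 52.2, 67.5 and 57.2 in colistin + 7-HC. Here too no library given colistin overlapped one without it, with colistin 1 the highest (log2 fold change 1.14 with an SE of 0.27 and adjusted p = 0.00771). Sec11a, the other catalytic subunit, went from 29.9, 32.9 and 32.6 FPKM in control to 57.98, 36.7 and 36.99 in colistin. Colistin 1 stood apart from the other 2, which were just above control, and the change did not pass the test (log2 fold change 0.43 with an SE of 0.19 and adjusted p = 0.11). The accessory subunits Spcs3 and Spcs1 rose by 1.10 and 0.72 (adjusted p = 0.00648 and 0.00511).

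Of the 11 COPII genes 2 passed the test, Sec13 and Sec24d, and the median log2 fold change of the 11 was 0.26. Sec13, a subunit of the outer coat that is also part of the nuclear pore, stood at 26.98, 26.4 and 25.6 FPKM in control, 23.1, 15.1 and 17.5 in 7-HC, 68.7, 32.6 and 46.4 in colistin and 27.9, 29.9 and 37.2 in colistin + 7-HC. The colistin libraries lay above all control libraries, with colistin 1 the highest (log2 fold change 0.83 with an SE of 0.24 and adjusted p = 0.02, limma). Sec24d, 1 of the 4 cargo-binding Sec24 proteins, stood at 14.7, 15.2 and 20.2 FPKM in control, 12.7, 17.1 and 19.9 in 7-HC, 39.01, 20.5 and 27.7 in colistin and 15.5, 22.00 and 18.3 in colistin + 7-HC. Colistin 2 lay just above control 3, and the colistin + 7-HC libraries overlapped those without colistin (log2 fold change 0.75 with an SE of 0.24 and adjusted p = 0.0314 for colistin against control). Both calls were lost without colistin 1 or control 2, that of Sec13 also without control 3, and that of Sec24d also without control 1 or colistin 3.

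None of the other 9 COPII genes passed the test in colistin. Sec23a, an inner coat subunit that activates the GTPase of the Sar1 proteins, gave 20.3, 20.9 and 23.4 FPKM in control and 24.4, 19.9 and 21.2 in colistin, overlapping values (log2 fold change 0.017 with an SE of 0.17 and adjusted p = 0.948). Its paralog Sec23b went from 11.3 ± 2.51 to 18.1 ± 7.77 FPKM (SD, n = 3; log2 fold change 0.60 with an SE of 0.27 and adjusted p = 0.112), a change not past the test, though called higher without colistin 2. Sec16a, the main scaffold of ER exit sites, Sec24c and Sec31a had log2 fold changes of 0.36, 0.30 and 0.26, and Sec16b, Sec24b, Sec24a and Sec31b ones of 0.069, -0.093, -0.19 and -0.28, none past the test.

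Sec22b, the best known of the 3 Sec22 genes, encodes the SNARE of ER-derived vesicles that fuse with the Golgi, and 1 of the 3, Sec22b itself, rose. It stood at 13.4, 11.8 and 12.6 FPKM in control, 11.3, 11.2 and 12.5 in 7-HC, 27.7, 14.7 and 18.2 in colistin and 10.9, 15.1 and 13.6 in colistin + 7-HC. Colistin 1 was highest by far and the colistin + 7-HC libraries overlapped control (log2 fold change 0.62 with an SE of 0.20 and adjusted p = 0.0312 for colistin against control, limma, lost without colistin 1, colistin 3 or any 1 control library). Sec22a gave 6.98, 5.51 and 6.81 and 9.04, 7.15 and 7.23 FPKM in control and colistin (log2 fold change 0.26 with an SE of 0.12 and adjusted p = 0.126), and Sec22c 2.41, 2.21 and 3.72 and 2.38, 2.59 and 1.89 (log2 fold change -0.22 with an SE of 0.19 and adjusted p = 0.414). Sec22a lay just above control and Sec22c overlapped it, and neither change passed the test.

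Of the 8 COPI genes 6 rose. Copa, the alpha subunit that reads the retrieval signal of ER proteins (chr1:172082529-172122332, GRCm38.p6), stood at 39.6, 39.1 and 40.2 FPKM in control, 36.8, 34.9 and 40.7 in 7-HC, 93.3, 61.99 and 76.7 in colistin and 59.5, 66.96 and 68.5 in colistin + 7-HC. Values without colistin lay within a narrow band and every value with it lay above that band (log2 fold change 0.94 with an SE of 0.14 and adjusted p = 0.000555, limma). Cope, the epsilon subunit, stood at 74.9, 72.2 and 66.3 FPKM in control, 65.9, 57.7 and 53.4 in 7-HC, 157, 113 and 134 in colistin and 104, 108 and 118 in colistin + 7-HC. The same separation held for it (log2 fold change 0.90 with an SE of 0.14 and adjusted p = 0.000575). Copb1, the beta subunit, moved least, from 25.8, 24.9 and 25.3 FPKM in control to 34.1, 25.2 and 29.1 in colistin, overlapping values (log2 fold change 0.20 with an SE of 0.13 and adjusted p = 0.237). Copg1, Copz2, Copb2 and Copz1 rose by 0.83, 0.70, 0.48 and 0.44. The calls of Copb2 and Copz1 were lost without colistin 1 or control 3, and that of Copb2 also without control 1, control 2 or colistin 3. Copg2, the second gamma subunit, gave -0.44 on the log2 scale (adjusted p = 0.0677).

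Of the 8 tested p24 genes 6 rose and 2 fell, the only members called lower. Tmed3, a p24 protein of the gamma subfamily (chr9:89699203-89705043, GRCm38.p6), stood at 11.7, 9.76 and 13.2 FPKM in control, 12.2, 7.32 and 9.26 in 7-HC, 44.7, 21.9 and 28.8 in colistin and 14.2, 25.4 and 19.7 in colistin + 7-HC. Every library given colistin lay above every library without it (log2 fold change 1.37 with an SE of 0.28 and adjusted p = 0.00312, limma). Tmed9, of the alpha subfamily, stood at 26.3, 20.5 and 26.04 FPKM in control, 22.2, 16.5 and 17.99 in 7-HC, 72.7, 29.4 and 50.6 in colistin and 25.1, 42.9 and 32.1 in colistin + 7-HC. Its colistin libraries lay above all control libraries, colistin 2 only slightly (log2 fold change 0.97 with an SE of 0.29 and adjusted p = 0.0241, lost without colistin 1, colistin 3 or control 2). Tmed10, the single delta-subfamily member, had the smallest change of the group, 42.3, 39.8 and 43.5 FPKM in control and 60.3, 53.7 and 55.3 in colistin, and with little spread within each group it passed the test (log2 fold change 0.43 with an SE of 0.11 and adjusted p = 0.0101). Tmed2 rose from 114 ± 8.01 to 190.4 ± 46.8 FPKM (SD, n = 3; log2 fold change 0.71), Tmed7 by 0.66 and Tmed4 by 0.53, the last lost without colistin 1, colistin 3 or control 1.

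Tmed1 and Tmed5, both of the gamma subfamily like Tmed3 and Tmed7, went the other way. Tmed1 (chr9:21507380-21510234, GRCm38.p6) stood at 6.54, 7.25 and 7.81 FPKM in control, 10.03, 7.10 and 5.57 in 7-HC, 2.85, 4.16 and 4.75 in colistin and 5.04, 5.72 and 4.81 in colistin + 7-HC. Its colistin libraries all lay below control, lowest in colistin 1, the library highest for most other members (log2 fold change -0.82 with an SE of 0.20 and adjusted p = 0.0096, limma). Tmed5 (chr5:108121556-108132620, GRCm38.p6) stood at 23.9, 24.1 and 18.5 FPKM in control, 21.8, 18.9 and 28.5 in 7-HC, 15.5, 13.7 and 16.5 in colistin and 13.00, 13.4 and 12.5 in colistin + 7-HC. All 6 libraries given colistin lay below the 6 without it (log2 fold change -0.52 with an SE of 0.15 and adjusted p = 0.0237 for colistin against control). The call of Tmed5 was lost without colistin 1, colistin 2, control 1 or control 2 and with median-ratio scaling. Exons of Tmed1 overlap those of Dnm2 on the opposite strand, exons of Tmed5 those of Mtf2, and exons of Tmed7 those of Ticam2 on the same strand. Such overlaps with a listed gene hold for 10 of the 53 genes, among them Copa (Ncstn), Sec11a (Nmb), Sec61a2 (Nudt5) and Copg2 (Mest), and the strand of the libraries is not given in the sources used here.

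**Figure D2:**
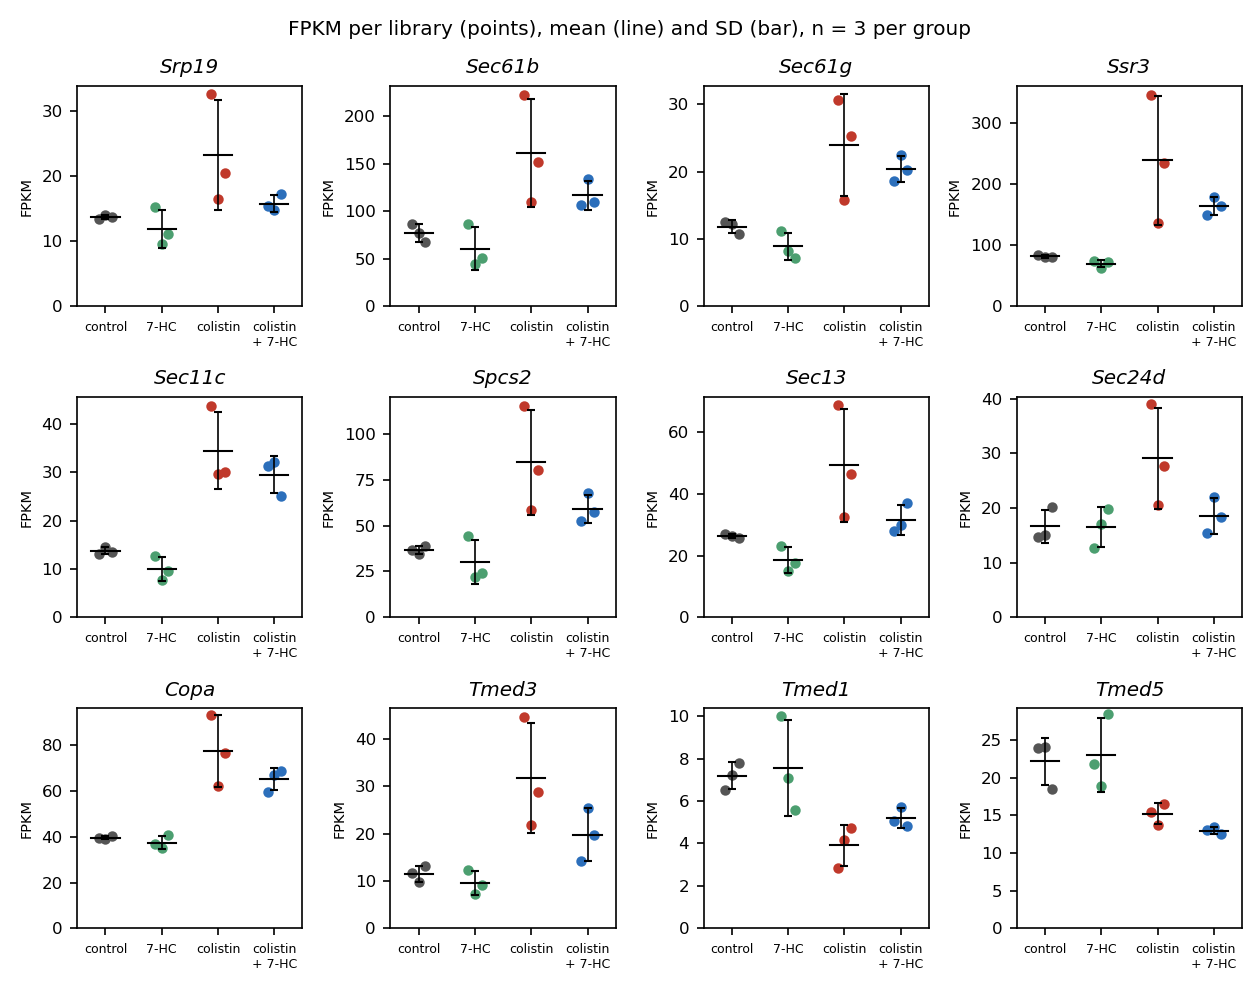
FPKM of 12 members in each of the 12 libraries, 3 libraries a group (points), with the mean (line) and SD (bar) of each group and each vertical axis starting at 0. Ssr3, Sec61g, Sec11c, Copa and Tmed3 lie higher in all 6 libraries given colistin than in the other 6, Tmed5 lies lower in all 6, and colistin 1 is the highest of its group for the 10 members that rose.

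The second comparison, colistin + 7-HC against 7-HC, asked the same of colistin in mice given 7-HC and shared no library with the first. Here 18 of the 50 members rose and 5 fell, beside 14.5% and 16.6% of all tested genes (limma). The median log2 fold change was 0.33, against -0.015 over all genes. In 25 members the colistin + 7-HC libraries all lay above the 7-HC libraries and in 5 all lay below, beside 22.1% and 24.4% of all genes. All 18 risers were also among the 27 of the first comparison, and genes that rose in both made up 8.38% of all tested genes. By role, the risers were 4 of 6 Sec61 translocon genes, 3 of 4 TRAP genes, 4 of 5 signal peptidase genes, 4 of 8 p24 genes, 2 of 8 COPI genes and 1 of 11 COPII genes, with none of the signal recognition particle or the Sec22 group. The values of all members summed to between 1840 and 2156 FPKM in colistin + 7-HC and between 1283 and 1522 in 7-HC. Beside them, Derl3 was at 0.37, 0.13 and 0.22 FPKM in 7-HC and 12.9, 38.5 and 56.7 in colistin + 7-HC, while the neutrophil list summed to between 8.21 and 11.04 and between 21.2 and 37.5 FPKM. Of the 6 neutrophil genes tested, 3 rose here and 3 were not called. Sdc1 went from 40.8, 59.5 and 51.5 to 18.5, 15.1 and 19.6 FPKM, and the plasma cell sums overlapped, at between 42.7 and 60.7 in 7-HC and between 32.3 and 77.3 in colistin + 7-HC. The part of these markers in the rise was not tested.

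Sec11c had the largest rise (log2 fold change 1.54 with an SE of 0.19 and adjusted p = 0.000192, limma), and was the single member past the study's thresholds here, beside 2.45% of all genes as risers. Ssr3 (log2 fold change 1.23 with an SE of 0.26 and adjusted p = 0.00421), Sec61g (log2 fold change 1.17 with an SE of 0.22 and adjusted p = 0.00234) and Copa (log2 fold change 0.79 with an SE of 0.14 and adjusted p = 0.00183) rose with it. Each of these 4 calls held with any 1 library left out. Tmed3 rose by 0.99 (adjusted p = 0.0182), Sec61b by 0.99 (0.0178) and Spcs2 by 1.02 (0.0146). These 3 calls were lost without 7-HC 2 or colistin + 7-HC 2, those of Sec61b and Spcs2 also without 7-HC 3. Sec13, the COPII riser, rose by 0.76 (adjusted p = 0.03), a call lost without 7-HC 2 or 3 or colistin + 7-HC 2 or 3. The 18 risers spanned log2 fold changes of 0.46 to 1.54. Without colistin + 7-HC 2 the comparison called 14 members, and without 7-HC 2 it called 15, 11 of them higher. These counts too stand without the share of all genes called in the same refits. Of the 23 calls, 14 held with each of the 12 libraries left out in turn, 10 of them risers. The call of Spcs1 (0.46, adjusted p = 0.0453) was lost without any 1 of 9 libraries and that of Ssr1 (0.69, adjusted p = 0.0359) without any 1 of 5.

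The 5 members that fell were Tmed5 and 4 paralogs of coat and SNARE genes. Sec16b, a shorter relative of the exit-site scaffold Sec16a, stood at 19.6, 20.2 and 22.6 FPKM in control, 23.8, 25.5 and 29.4 in 7-HC, 21.1, 29.98 and 16.3 in colistin and 13.7, 14.8 and 16.7 in colistin + 7-HC. The colistin + 7-HC libraries lay below the 7-HC and the control libraries, the 7-HC libraries lay above control, and the colistin libraries overlapped each of the other groups (log2 fold change -0.78 with an SE of 0.19 and adjusted p = 0.00897, limma). Sec24a, another of the cargo-binding Sec24 proteins, stood at 14.7, 11.3 and 13.1 FPKM in control, 13.2, 17.3 and 18.01 in 7-HC, 12.8, 10.2 and 11.1 in colistin and 11.3, 9.67 and 10.8 in colistin + 7-HC. Its colistin + 7-HC values lay below the 7-HC values, and control overlapped both (log2 fold change -0.58 with an SE of 0.15 and adjusted p = 0.0116). Sec22c was at 3.08, 3.88 and 4.57 FPKM in 7-HC and 2.15, 1.77 and 1.65 in colistin + 7-HC (log2 fold change -0.87 with an SE of 0.19 and adjusted p = 0.00539), and Sec23a at 18.4, 28.4 and 30.1 and 17.2, 15.7 and 17.1 (log2 fold change -0.58 with an SE of 0.17 and adjusted p = 0.0218). The groups did not overlap for either gene. The call of Sec23a was lost without 7-HC 2, 7-HC 3 or colistin + 7-HC 2. Tmed5 fell by 0.79 on the log2 scale (adjusted p = 0.00318).

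Across the 50 members the log2 fold changes of both comparisons had a Pearson correlation of 0.888, and over all 10764 genes one of 0.789. Genes are not independent replicates, and both sets of values come from the same fit, so these are descriptions. The sign was the same for 46 of the 50.

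**Figure D3:**
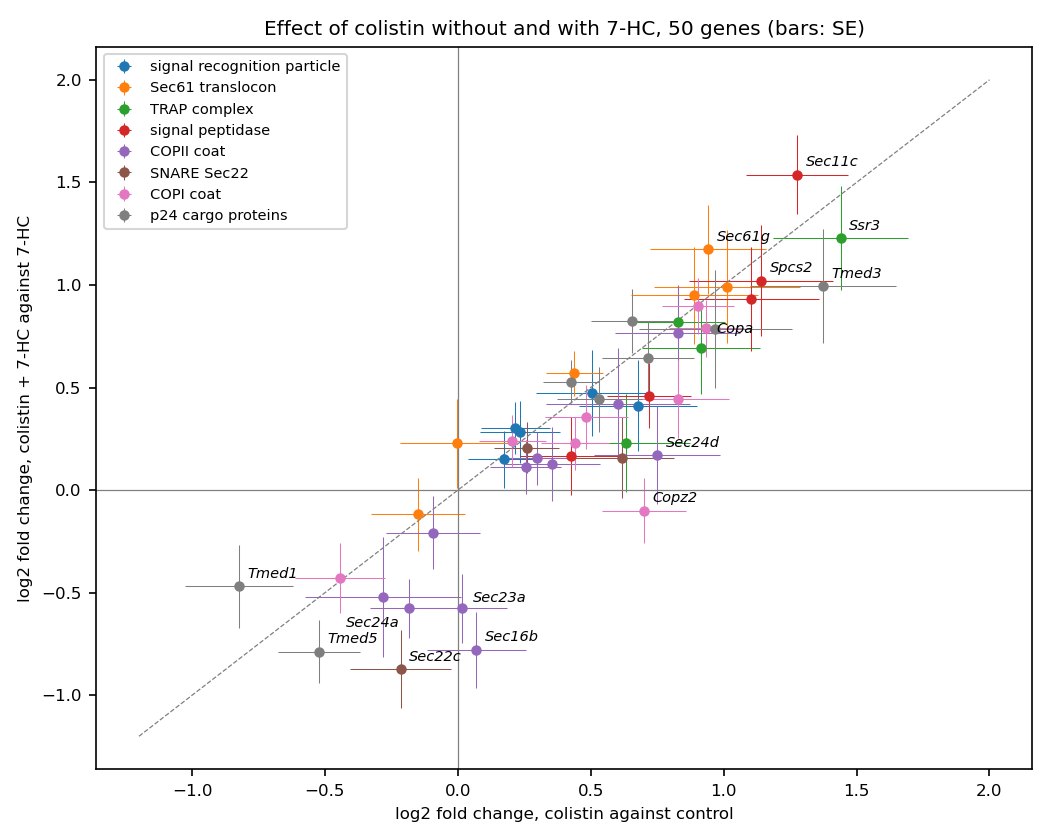
Log2 fold change of each of the 50 members for colistin against control (horizontal axis) and colistin + 7-HC against 7-HC (vertical axis), coloured by role, with SE bars and a dashed line of equal change. Sec11c, Ssr3 and Tmed3 lie far up to the right, Tmed1 and Tmed5 at the lower left, and Sec16b, Sec23a and Copz2 lie below the line, with log2 fold changes of 0.069, 0.017 and 0.70 on the horizontal axis and -0.78, -0.58 and -0.10 on the vertical.

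The difference between the effects of colistin with and without 7-HC was tested as the interaction. No member passed, where 0.297% of all genes did, and 4 of the 50 had an unadjusted p under 0.05, beside 11.5% of all genes (limma). The smallest adjusted p was 0.196, for Copz2, the minor zeta subunit of COPI. Copz2 stood at 19.1, 18.2 and 19.7 FPKM in control, 29.04, 21.3 and 29.6 in 7-HC, 31.9, 32.7 and 28.98 in colistin and 21.7, 22.1 and 30.8 in colistin + 7-HC. The control libraries were lowest, and the other 3 groups overlapped each other (interaction on the log2 scale -0.80, 95% interval -1.29 to -0.31). Sec16b had an interaction of -0.85 (95% interval -1.42 to -0.27, adjusted p = 0.242). The 9 members that rose in the first comparison and were not called in the second are therefore not shown to differ between them.

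Adding 7-HC to colistin was the study's second comparison. No member passed in colistin + 7-HC against colistin, where 0.00929% of all genes did (limma; smallest adjusted p 0.294, for Sec22b), and 10 of 50 had an unadjusted p under 0.05, beside 12.4% of all genes. Of all 10764 genes 5822 had a positive log2 fold change, with a median of 0.022 over all. Those of the members were negative for 46 of 50, with a median of -0.23. The colistin libraries are the same as in colistin against control. High values in them raise the fold changes there and lower those here, so these signs are not separate evidence. The largest negative value was that of Tmed3 (-0.65, 95% interval -1.25 to -0.043), followed by Sec24d (-0.60, -1.12 to -0.078), and the intervals over all members reached from -1.25 to 0.85. In 3 members, Sec23a, Tmed5 and Tmed10, every colistin + 7-HC library lay below every colistin library, beside 6.99% of all genes, and in 1, Tmed1, every one lay above, beside 9.91%.

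This comparison turned on colistin 2, the colistin library closest to control and the lowest of its group for 40 of the 50 members. Leaving it out raises the colistin mean of those members by construction. The calls without it are therefore given as a description. Without colistin 2, 6 members were lower in colistin + 7-HC, beside 1.36% of all genes as lower: Ssr1, Ssr2, Ssr3, Sec22b, Sec13 and Copg1. Their log2 fold changes were then between -0.86 (Ssr2, SE 0.20, adjusted p = 0.0419, limma) and -0.75 (Copg1, SE 0.15, adjusted p = 0.025). With all 12 libraries Ssr2 had -0.59 (adjusted p = 0.345) and Copg1 -0.52 (0.311), and leaving out any other library called no member.

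Given alone, 7-HC changed no member past the test (0.167% of all genes passed; smallest adjusted p among members 0.356, limma), and 5 of 50 had an unadjusted p under 0.05, beside 9.59% of all genes. The median log2 fold change was -0.12, and 39 of 50 were below 0, as were 57.5% of all genes. In 11 members every 7-HC library lay below every control library, beside 10.1% of all genes, and in 2, Copz2 and Sec16b, every one lay above, beside 5.82%. Among the 11 was Tmed10, at 36.01, 32.3 and 32.9 FPKM in 7-HC against 42.3, 39.8 and 43.5 in control (log2 fold change -0.31 with an SE of 0.11 and adjusted p = 0.361). Cope was another, at 65.9, 57.7 and 53.4 FPKM against 74.9, 72.2 and 66.3 (log2 fold change -0.27 with an SE of 0.14 and adjusted p = 0.564). Within the 7-HC group, 7-HC 1 was the highest of its group for 27 members.

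Several members are paralogs, some of which fill the same place in a complex, and the ratio within a pair does not depend on the scale of a library. The ratios of 13 pairs, chosen after their values were seen, are given as a description. An exact permutation test of 3 libraries against 3 cannot give a p under 0.1. No pair passed it (smallest adjusted p 0.2). Copb1 to Copb2 joins different COPI subunits rather than alternatives for 1 place, and the Sec24 genes recur across pairs. The groups did not overlap for 8 of the 13 in colistin against control, Copb1 to Copb2 among them. They did not overlap for 5 in colistin + 7-HC against 7-HC and for 4 in both. Of single tested genes, 18.8% lay higher and 28.1% lower without overlap in the first comparison, and 22.1% and 24.4% in the second. The pairs were counted in either direction, and no share over ratios of other gene pairs was computed. The single-gene shares are therefore not a background for the pairs. Pairs that overlapped included Sec31a to Sec31b in the first and Sec23b to Sec23a in the second comparison, despite shifts of 1.55-fold and 2.04-fold. The ratio of Copg1 to Copg2 was 2.70, 3.23 and 2.55 in control, 3.69, 2.30 and 2.28 in 7-HC, 9.25, 4.55 and 8.55 in colistin and 4.88, 6.27 and 4.39 in colistin + 7-HC. Each colistin-treated group lay above its own reference, by 2.53-fold without and 1.91-fold with 7-HC. The ratio of Sec11c to Sec11a was 0.442, 0.442 and 0.412 in control, 0.333, 0.285 and 0.362 in 7-HC, 0.755, 0.811 and 0.812 in colistin and 1.04, 0.860 and 0.731 in colistin + 7-HC. All 6 libraries given colistin lay above all 6 without, and Sec11c came close to the level of Sec11a there. Sec22b to Sec22c shifted by 1.86-fold and 2.31-fold, and Sec24d to Sec24a by 1.95-fold and 1.71-fold, again with no overlap in either comparison.

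**Figure D4:**
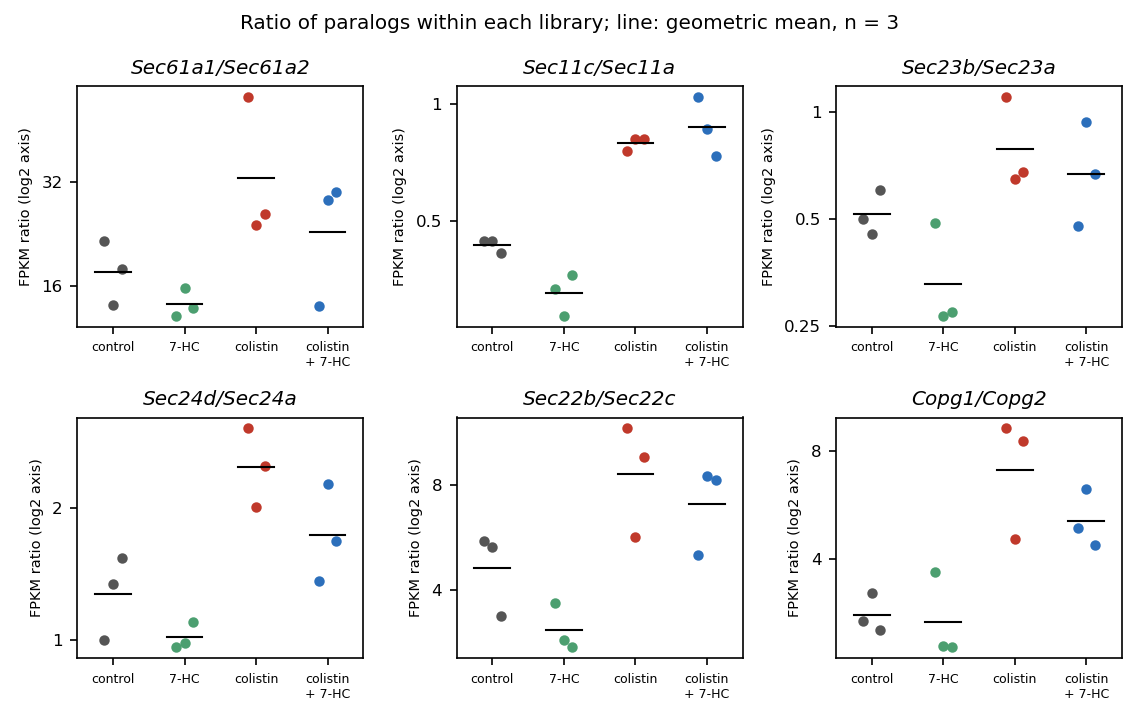
Ratio of FPKM of 6 paralog pairs within each library (points, log2 axis), with the geometric mean of the 3 libraries of each group (line). For Sec11c to Sec11a all 6 libraries given colistin lie above the other 6, and for Copg1 to Copg2 the colistin ratios exceed all control ratios, with shifts of 1.83-fold and 2.53-fold in colistin against control.

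Genes that work beside the members were read from a list of 101 tested genes. In colistin 43 rose and 8 fell, and in colistin + 7-HC against 7-HC 33 rose and 9 fell (limma). Over all tested genes, 12.7% rose and 19.9% fell in the first of these comparisons and 14.5% and 16.6% in the second. Of 11 genes of the oligosaccharyltransferase, the enzyme that glycosylates proteins as they pass the translocon, 9 rose in the first comparison and 10 in the second, with none lower. Rpn1, its ribophorin I subunit, was at 20.03, 20.6 and 20.2 FPKM in control and 104, 59.2 and 84.9 in colistin, with no overlap (log2 fold change 1.96, adjusted p = 2.67e-05), Ddost rose by 1.32 and Krtcap2 by 1.29. The ER chaperone genes Hspa5 (BiP) and Hyou1 rose by 1.66 and 2.01.

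At the steps where the members stand, the partners split. Of the targeting genes, the receptor subunits Srpr and Srprb rose by 0.58 and 1.16, beside the Srp54 genes above. Of 15 translocon partners 4 rose and 3 fell, where 12.7% of all tested genes rose and 19.9% fell: Tram1 rose by 0.91, while the genes of the ER membrane protein complex, an insertase beside Sec61, included the fallers Emc9 (-1.27), Emc6 (-0.79) and Emc10 (-0.35). Sar1b, the GTPase that starts the COPII coat and is needed for lipoprotein export, was at 122, 113 and 105 FPKM in control and 72.1, 70.5 and 63.1 in colistin. All colistin values lay below control (log2 fold change -0.72, adjusted p = 0.00124), and it fell by 1.04 on the log2 scale in the second comparison. The cargo receptors Surf4, Mcfd2 and Kdelr2 rose by 1.04, 1.03 and 1.06, whereas Ergic1 and Ergic3 fell by 0.46 and 0.47. Arcn1, which encodes the delta subunit of COPI, gave 0.38 on the log2 scale in the first comparison (adjusted p = 0.0762) and rose by 0.46 in the second. Among transcription factors known to act on this machinery, Xbp1 rose by 1.001 and 1.52, Atf6 by 0.35 and 0.37 and Creb3l2 by 0.78 and 1.11 in the first and second comparison. Of the 13 genes of that list, 7 rose and 0 fell in the first comparison. In the second 5 rose and 1 fell, beside 14.5% and 16.6% of all tested genes. Creb3l3 had means of 113 FPKM in control, 114 in colistin, 125 in 7-HC and 91.5 in colistin + 7-HC.

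Promoter letters were then searched for the elements that XBP1 and ATF6 are known to bind, since many members rose together. RefSeq windows on GRCm38.p6, from 250 bases before to 50 bases after a listed start, were at hand for 44 of the 52 members. The unfolded protein response element (TGACGTGG, either strand) was found in 5 of these 44 (11.4%), beside 0.714% of all genes with a window and 0.993% of the tested genes with one. The 5 stretches are shown because they carry that element close to the listed start. Each runs 5′ to 3′ in the gene's direction from 60 bases before the start to 20 bases after it, 80 bases in all, with the element in capitals in either orientation.
Sec24d, chr3:123267436-123267515, plus strand: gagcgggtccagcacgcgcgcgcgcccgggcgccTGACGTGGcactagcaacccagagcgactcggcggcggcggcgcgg
Copb2, chr9:98563671-98563750, plus strand: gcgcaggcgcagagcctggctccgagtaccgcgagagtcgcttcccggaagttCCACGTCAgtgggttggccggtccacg
Copb1, chr7:114254661-114254740, minus strand: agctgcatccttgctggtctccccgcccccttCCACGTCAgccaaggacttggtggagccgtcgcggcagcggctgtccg
Sec16b, chr1:157506736-157506815, plus strand: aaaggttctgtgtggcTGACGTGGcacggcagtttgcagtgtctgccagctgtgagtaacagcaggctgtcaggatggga
Sec23a, chr12:59011998-59012077, minus strand: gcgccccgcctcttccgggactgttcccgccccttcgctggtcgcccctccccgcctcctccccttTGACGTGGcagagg

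The genes with these letters did not share a direction. Sec24d and Copb2 rose in colistin, Copb1 (0.20), Sec16b (0.069) and Sec23a (0.017) did not pass the test there, and Sec16b and Sec23a fell in colistin + 7-HC against 7-HC. Ssr3, Sec11c and Tmed3, the 3 members with the largest log2 fold changes in colistin, were not among the 5. The ER stress response element (CCAAT and CCACG with 9 bases between them, either strand) was found in none of the 44, beside 0.137% of all genes with a window. The shorter letters GACGTG, which lie within TGACGTGG, were found in 15 of 44 (34.1%), beside 11.2% of tested genes with a window. A match is a match of letters in these windows and does not show that a factor bound there.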

How the data were processed

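RNA of 12 mice, 3 per group, was sequenced by the authors on the BGISEQ-500. After filtering with SOAPnuke, HISAT2 2.0.4 placed reads on GRCm38.p6, Bowtie2 2.2.5 placed them on coding genes and RSEM 1.2.12 gave a level per gene, while DESeq2 1.4.5 served the authors' tests. The deposited values carry no unit and were taken as FPKM, since they are not whole and their sums per library are unequal (517984 to 597354). Counts, reads per library and strand are not given in the sources used here, so depth is unknown, no counting interval was computed and overlapping genes can share reads.

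Genes with 3 or more libraries at 1 FPKM or above were fitted on log2(FPKM + 0.5) with limma 3.58.1 (R 4.3.3), a mean-variance trend, a term per group and all 12 libraries; the pseudocount understates changes of low genes. P-values were adjusted by Benjamini-Hochberg over all genes of each comparison and called under 0.05. The fit was tested on simulated data. The members, gene lists, motifs and alternatives were chosen with earlier results of these data known. Members named with each library's value were, per role, the 2 with the largest and the 1 with the smallest absolute log2 fold change in colistin, those that fell, and the top and bottom of the levels; others named with single values were chosen after their values were seen. Alternatives were no filter, a filter in every library, pseudocounts of 0.1 and 1, median-ratio scaling, a fit of the groups compared, a replicate block, the study's thresholds and each library left out.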

Additional observations from a re-analysis of the deposited data

How the results depend on the processing

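At a fold change of 2 or more and an adjusted p of 0.001 or less, 1 member was called in colistin against control and 1 in colistin + 7-HC against 7-HC, in place of 29 and 23. Leaving out each library in turn gave 19 to 32 members in the first comparison, 14 to 27 in the second and 0 to 6 in colistin + 7-HC against colistin, the 6 without colistin 2. Without colistin 2, 4.37% of all tested genes were called in that last comparison, beside 0.00929% with all 12 libraries. Calls thus shifted beyond the members too. For the other left-out libraries and the settings below, the share of all genes called is not given here. Those counts of members are descriptions. Under the other settings the first comparison gave 20 (a fit of the groups compared) to 30 (median-ratio scaling) and the second 20 (no filter) to 25, while 7-HC against control and the interaction, where it could be fitted, gave 0 throughout. Median-ratio scaling moved the share of higher calls over all genes from 38.9% to 48.8% in colistin against control and moved the median of all genes by 0.077 there. With the replicate number as a block the counts were 29, 22, 0, 0 and 0. Of 18 same-numbered pairs of libraries 2 had a correlation of residuals over 0.1 (range -0.19 to 0.11). A differently numbered pair, control 2 with colistin + 7-HC 1, reached 0.26. These correlations show no pairing by number but cannot decide whether the numbers pair the samples. Fold changes near 0 that turned sign, none called, were for colistin against control those of Sec61a2 (0.073 with median-ratio scaling, and -0.17 to 0.10 over the libraries left out), Sec23a (-0.065 to 0.081) and Sec16b (-0.16 to 0.27), and for colistin + 7-HC against 7-HC those of Sec62 (-0.31 to 0.089), Sec24d (-0.00081 to 0.31) and Sec16a (-0.076 to 0.24). The cause was not tested. With 3 libraries a group and depth unknown, small changes in the members may go undetected.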
